A study of Homo sapiens with 6 samples.

Results

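The genes described here are the nuclear genes for the MRPL and MRPS proteins of the mitochondrial ribosome, and the question was which of their mRNAs carried clusters of IGF2BP3, where, and with which ribonuclease. Members were the protein-coding genes of GENCODE release 44 whose symbol is MRPL or MRPS followed by a number and, at most, a letter from A to C. There were 78 such genes among 20046 protein-coding genes, 49 MRPL and 29 MRPS. Any cluster sharing at least 1 nt with a member's exon, in the same orientation, was assigned to that member. The libraries came from HCT116, a human colorectal carcinoma line, with the genotype Tet-OsTIR1-PURO in all of them, labeled with 100 µM 4-thiouridine for 15 h and irradiated with UV light. IGF2BP3, an oncofetal protein that binds mRNAs, was precipitated in 5 libraries. According to the paper, the antibody used also recognized the paralog IGF2BP2 in part, so that some clusters may be those of IGF2BP2. Concentrations are written as in-lysate/on-beads in U/µL. RNase I was used at 0.05/0.05, 0.1/0.025 and 0.05/0.025, and RNase T1 at 1/1 and 0.25/0.25. The sixth library was the IgG control, digested with RNase I at 0.1/0.025. Unless stated otherwise, series of 5 values below follow this order of the IGF2BP3 libraries, series of 3 values are those of RNase I and series of 2 values those of RNase T1. Each condition was a single library, so that no test between conditions was possible. Every interval below is a 95% interval for counting error of reads only, with these exceptions. An interval of a median or of a share of genes or clusters is over genes or clusters, which are not replicates. RNA from RNase I 0.05/0.05 and RNase T1 1/1 was electroeluted and that of the other IGF2BP3 libraries came from crushed gel, so concentration and gel extraction cannot be told apart between RNase T1 1/1 and 0.25/0.25, or between RNase I 0.05/0.05 and the other RNase I libraries. RNase I 0.1/0.025 and 0.05/0.025 shared the extraction and differed in the in-lysate concentration.

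The mitochondrial ribosome translates the few proteins encoded by mitochondrial DNA, which are subunits of the respiratory chain and the ATP synthase. Its rRNAs are mitochondrial transcripts, while all of its proteins are encoded in the nucleus, translated in the cytosol and imported. The MRPL symbols denote proteins of the large subunit and the MRPS symbols mostly proteins of the small subunit, although MRPS30 and MRPS18A have been located in the large subunit and MRPS36 is now assigned to the α-ketoglutarate dehydrogenase complex under the symbol KGD4. IGF2BP3 binds mRNAs mainly in their 3′UTRs, with a preference for CA-rich elements.

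The deposited clusters held 2362467 reads with RNase I 0.05/0.05 and between 182448 and 1157194 in the other 4 IGF2BP3 libraries. The IgG library held 324 reads in 25 clusters, and 0 of these clusters lay on a member, which at this depth says little about background on these mRNAs. Of 7 epithelial and intestinal marker genes 5 had a cluster, against 46.7% of all protein-coding genes, and of 5 markers of other cells 0 did. Among the 7, KRT20 and VIL1 had no cluster, and CDX2 had 5 reads, with RNase T1 1/1 only. A gene without a cluster may still be expressed. RNA levels were not measured in these samples, and whether differences between genes follow the abundance of their mRNAs was not tested. A list of clusters does not hold genes below the minimum of the cluster caller, so that a gene without a cluster is described as such and not as unbound.

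Member exons carried 383, 210 and 192 clusters in the RNase I libraries and 262 and 63 in the RNase T1 libraries. Together the member clusters took nearly the same share of all cluster reads in each library. It was 0.395%, 0.405%, 0.408%, 0.413% and 0.377%. A cluster was found for 59, 48, 50, 51 and 24 members, which are 75.6%, 61.5%, 64.1%, 65.4% and 30.8% of the 78, against 43.7%, 32%, 30.3%, 37.6% and 16.7% of all protein-coding genes. Over the 5 libraries together it was 63 of the 78 members, against 46.7% of all genes.

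The target call asked for a cluster with over 10 CPM, which are counts scaled to 1000000 cluster reads of the library, and, in the same cluster, over 0.5 conversions of T to C for each read. These conversions arise where 4-thiouridine was crosslinked to the protein. Of the 78 members, 33, 33 and 32 were targets in the RNase I libraries, which are 42.3%, 42.3% and 41.0% of them. The same call was made for 21.9%, 21.3% and 22% of all protein-coding genes. With RNase T1 1/1 the call was made for 17 members (21.8%), against 19.6% of all genes, and with RNase T1 0.25/0.25 for 19 members (24.4%), against 13.7%. The Wilson interval over the 78 genes lay above the background in the RNase I libraries and with RNase T1 0.25/0.25 (16.2% to 34.9%). With RNase T1 1/1 (14.1% to 32.2%) it included the background. This interval treats genes as independent, which they are not, and holds no variation between libraries. It is therefore no test of a difference. The threshold of 10 CPM corresponded to 23.6 reads in the deepest library and to 1.82 reads with RNase T1 0.25/0.25, so the calls of the latter rest on few reads. The smallest cluster of that library had 2 reads, so that every cluster passed 10 CPM. Its calls, for members and for all genes, therefore rest on the conversion criterion alone.

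**Figure D1:**
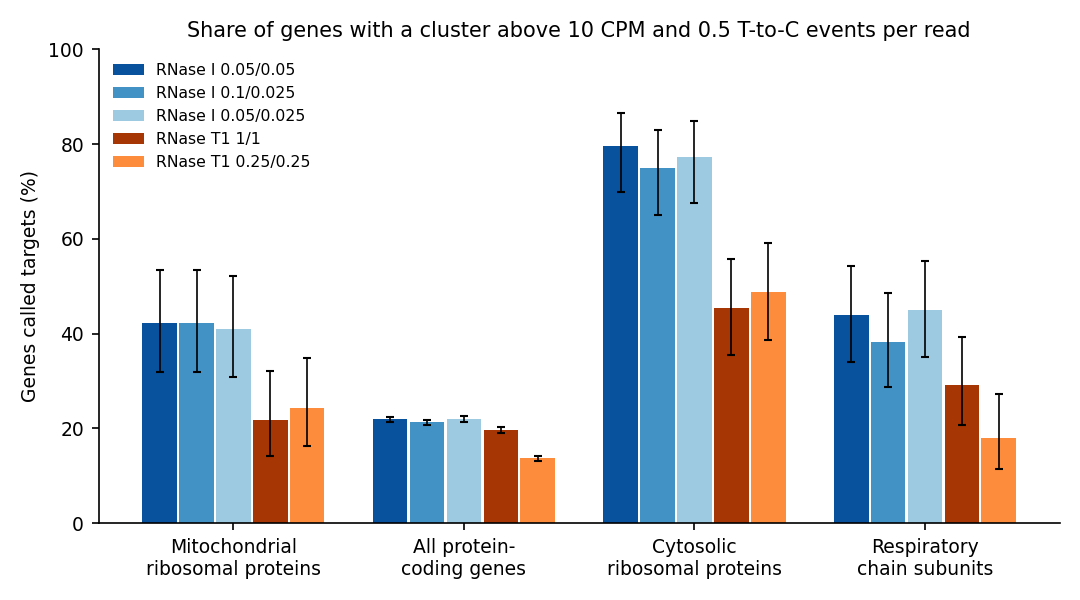
Percent of genes called targets (vertical axis) in each of the 5 IGF2BP3 libraries (bars) for the 78 mitochondrial ribosomal protein genes, all 20046 protein-coding genes, 88 cytosolic ribosomal protein genes and 89 respiratory chain subunit genes. Error bars are 95% Wilson intervals over genes, which are not replicates. The members stand at 41.0% to 42.3% with RNase I and at 21.8% and 24.4% with RNase T1.

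The call was lost between RNase I 0.05/0.05 and RNase T1 1/1 for 17 members. Of these, 8 had an RNase T1 1/1 cluster above 10 CPM with too few conversions, 7 had clusters below 10 CPM and 2 had no cluster. The conversion criterion thus removed 47.1% of them, and 49.9% of the 1210 protein-coding genes in the same position. Among member clusters above 10 CPM, 91.1% of 101 passed 0.5 events per read with RNase I 0.05/0.05 and 47.0% of 115 with RNase T1 1/1. Over all protein-coding genes these shares were 90.8% and 48.4%.

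In all 5 libraries 12 members (15.4%) were targets, against 9.91% of all genes. These were MRPL3, MRPL9, MRPL10, MRPL18, MRPL19, MRPL42, MRPL49, MRPL50, MRPS18C, MRPS23, MRPS27 and MRPS30. In at least 1 library 39 members were targets, against 29.5% of all genes. Of these, 22 were targets with both enzymes, 16 in RNase I libraries only and 1, MRPL53, in an RNase T1 library only. Of the 5919 protein-coding genes called in at least 1 library, 65.6% were targets with both enzymes, 25.8% in RNase I libraries only and 8.62% in RNase T1 libraries only. The 9 members called in exactly the 3 RNase I libraries were MRPL4, MRPL15, MRPL17, MRPL33, MRPL34, MRPL45, MRPS2, MRPS7 and MRPS16, and 0 members were called in exactly the 2 RNase T1 libraries. Of the same 5919 genes 7.35% and 0.828% had these patterns. Leaving the shallow RNase T1 0.25/0.25 library aside, a choice made after seeing the data, 14 members were targets in each of the other 4 libraries and 38 in at least 1 of them.

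Of the 12 members called in all 5 libraries, the 8 with the most RNase T1 1/1 reads in a cluster at a site shared by all 5 libraries are shown by the sequence around the position of strongest signal in that cluster. These are sites at which both enzymes gave clusters, seen at the width that RNase T1 left. Sequences are those of the deposited clusters, written 5′ to 3′ as DNA in transcript direction, up to 30 nt long, and capitals mark CATT, TCAT and CAGT, read on the transcript strand only and also where they overlap.
MRPL3 (chr3:131462605-131462634, minus strand): tcttagtcacaacaaaatcacacatgTCAT
MRPL50 (chr9:101390277-101390306, minus strand): tacaaatggacaaataacggactttctatt
MRPL18 (chr6:159798311-159798340, plus strand): cccctctcttgggcttcagaagcatctaag
MRPL19 (chr2:75659022-75659051, plus strand): attaaggaaggactttcttctacCATTtaa
MRPL42 (chr12:93501496-93501525, plus strand): gaacatcaataaattacatcagaaattcaa
MRPS27 (chr5:72220082-72220111, minus strand): gtgggatactcacaCATTcccaCATTctcc
MRPS30 (chr5:44816980-44817009, plus strand): ctgttcttcctctcacttttcttcaaatat
MRPL9 (chr1:151759693-151759716, minus strand): gccTCATTcTCATCATccaaactg
Coordinates are on GRCh38. At least 1 of the 3 tetramers stood in 4 of these 8 windows, and the other 4 held none of them. Among 30 nt windows placed in the same way, 53.2% of 156 in member clusters and 45.8% of 30892 in clusters of all protein-coding genes held at least 1 with RNase T1 1/1. The clusters around these windows had 291 reads in MRPL3, 182 in MRPL50, 104 in MRPL18, 103 in MRPL19, 89 in MRPL42, 83 in MRPS27, 69 in MRPS30 and 48 in MRPL9. All of them were assigned to 3′UTRs except that of MRPS30, which lay in an exon outside its canonical transcript.

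Levels were compared between genes as CPM per kb of canonical transcript, and the highest mean over the 5 libraries belonged to MRPL18. This protein of the uL18 family had 94.7, 119 and 141 CPM per kb in the RNase I libraries and 187 and 362 in the RNase T1 libraries (mean 181). Next came MRPL3, of the uL3 family, with 102, 109, 110, 216 and 343 CPM per kb in the same order (mean 176). Both were higher in each RNase T1 library than in any RNase I library. The third, MRPS21, of the bS21 family, had 101, 107, 89.3, 181 and 283 CPM per kb (mean 152) and showed the same order of enzymes. It was nevertheless a target in 4 libraries only, because its 1 cluster with RNase T1 1/1, of 227 reads, had 0.493 conversion events per read, just under the minimum.

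MRPS10 and MRPS35, proteins of the small subunit, were ordered the other way. MRPS10, of the uS10 family, had 97.4, 157, 154, 42.4 and 91.4 CPM per kb. MRPS35 had 99.3, 134, 135, 76.1 and 71.9 CPM per kb. In both genes each RNase I library lay above each RNase T1 library, in MRPS10 by a small margin over the 35 reads of RNase T1 0.25/0.25. MRPS27, a pentatricopeptide repeat protein, differed least among the 10 highest members, between 65.3 and 109 CPM per kb, with the lowest value with RNase T1 0.25/0.25.

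MRPL9, of the bL9 family, had 72.3, 115, 124, 55.1 and 71.6 CPM per kb. MRPL10, of the uL10 family at the base of the ribosomal stalk, had 82.3, 97.5, 106, 26.7 and 34.5. The enzymes were well apart in MRPL10, while in MRPL9 the lowest RNase I and the highest RNase T1 value nearly met. MRPL19, of the bL19 family, had the most reads of all members, 3063 over the 5 libraries, spread over a 3′UTR of 6921 nt. Its levels were 71.9, 62.3, 49.3, 99.6 and 49.7 CPM per kb. Of its reads 20.2% lay on exons shared with a lncRNA gene on the same strand. MRPL58, a peptidyl-tRNA hydrolase that rescues stalled mitochondrial ribosomes, had 59.2, 64.0 and 103 CPM per kb with RNase I, no cluster with RNase T1 1/1 and 98.1 with RNase T1 0.25/0.25.

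**Figure D2:**
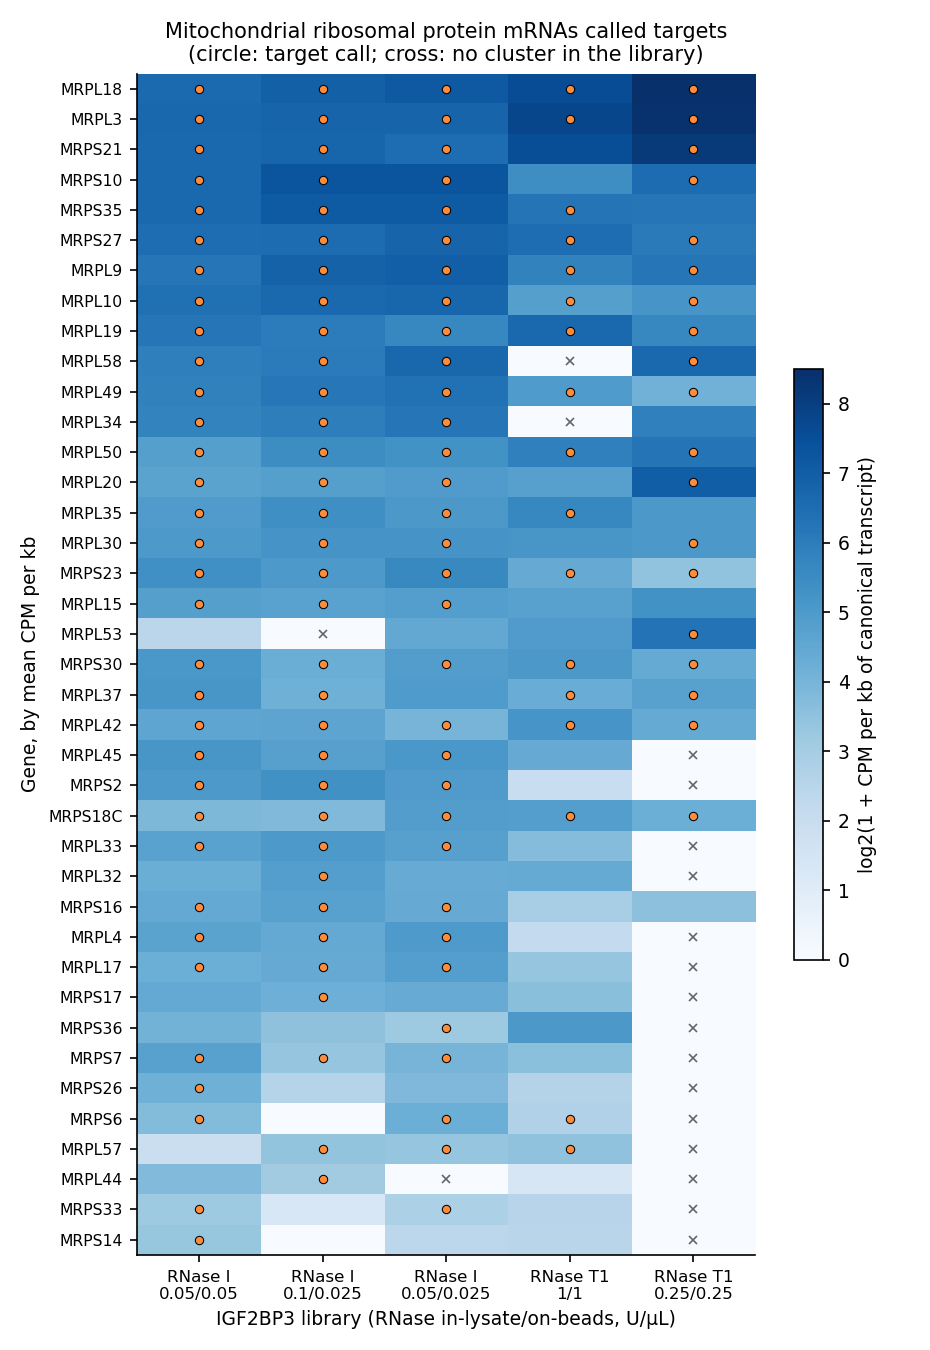
Heat map of the 39 members called targets in at least 1 library (rows, by mean CPM per kb of canonical transcript) in the 5 IGF2BP3 libraries (columns). Colour is log2(1 + CPM per kb), circles mark target calls, crosses mark a library without a cluster of the gene, and a white field without a cross has clusters only on exons outside the canonical transcript; 12 rows carry a circle in all 5 columns.

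Among members with a cluster on the canonical transcript, the median level was 18.2, 25.2 and 27.6 CPM per kb in the RNase I libraries (59, 45 and 49 genes). It was 15.4 and 53.6 in the RNase T1 libraries (49 and 24 genes). Over all protein-coding genes with a cluster, the medians were 9.66, 14.0, 15.0, 11.2 and 28.9 CPM per kb. The medians of the members were therefore above those of all genes in each library. The genes with a cluster were not the same in each library, so these medians describe each library by itself. Canonical 3′UTRs had a median of 464.5 nt in members and 1064 nt over all genes. What part length had in these levels was not tested. Across the 78 members Spearman's rho of CPM per kb, with genes without a cluster at 0, was 0.89 to 0.92 between RNase I libraries, 0.69 between the RNase T1 libraries and 0.72 to 0.78 between an RNase I and an RNase T1 library. These are correlations across genes, which share the length of their transcripts and are not independent replicates.

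For 15 members no cluster was found in any library. They were MRPL23, MRPL27, MRPL28, MRPL39, MRPL41, MRPL46, MRPL54, MRPL55, MRPS5, MRPS15, MRPS18A, MRPS18B, MRPS25, MRPS28 and MRPS34. A further 24 members had a cluster but no target call, among them MRPL12, which forms the ribosomal stalk with MRPL10 and had 5 reads in a single library, and MRPS12, a protein of the decoding centre with 27 reads with RNase I 0.05/0.05 and 5 with RNase I 0.05/0.025. The calls differed with the length of the canonical 3′UTR. Its median was 795 nt in the 39 members called in at least 1 library, 261 nt in the 24 with clusters but no call and 225 nt in the 15 without a cluster. Over all 78 members it was 464.5 nt.

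Of 24 members with a 3′UTR under 250 nt, 4 were targets in at least 1 library, against 11.8% of all protein-coding genes in this class. Of 34 members with 250 to under 1000 nt, 19 were targets, against 22.5%, and of 20 members with 1000 nt or more, 16 were, against 40.4%. The ranges of the 3 classes of calls overlapped. MRPS25, with a 3′UTR of 3929 nt, and MRPS5, with 1988 nt, had no cluster in any library, whereas MRPL37, with 134 nt, was called in 4 libraries.

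**Figure D3:**
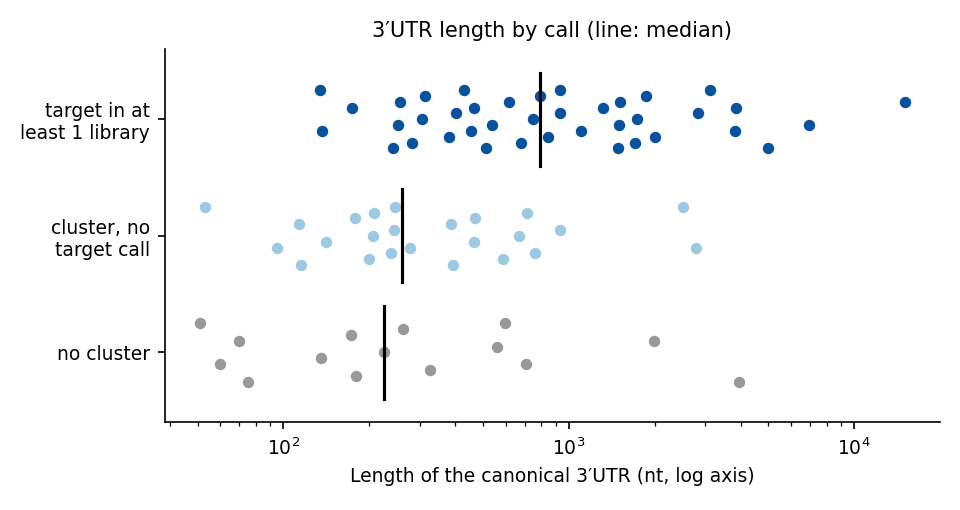
Length of the canonical 3′UTR (horizontal log axis, nt) of the 78 members, grouped by call, with 1 point per gene and the median as a line. The median was 795 nt in targets, 261 nt in members with a cluster but no call and 225 nt in members without a cluster.

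Most member reads lay in clusters that overlapped a 3′UTR. The share was 86.2% with RNase I 0.05/0.05 (8036 of 9324 reads, exact interval 85.5% to 86.9%), and 91.8%, 92.3%, 88.0% and 92.0% in the other libraries. Over all protein-coding genes it was 81.0%, 82.7%, 81.3%, 87.6% and 87.5%. Clusters assigned to the coding sequence held 8.83%, 4.67%, 5.99%, 6.52% and 4.80% of the member reads, against 18.0%, 16.4%, 17.8%, 11.3% and 11.5% over all genes. A cluster over both features was counted in the 3′UTR. Under this rule the members had a lower share in coding sequence than all genes in each library. When such clusters were counted in the coding sequence instead, the 3′UTR share of the members with RNase I 0.05/0.05 was 72.4%. The value of all genes was not computed in this way, so the comparison holds only for the first rule. Clusters over the stop codon were 3.66%, 3.81%, 4.69%, 0.763% and 1.59% of the member clusters. Over all genes they were 2.51%, 2.17%, 2.38%, 0.697% and 0.804%.

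Reads of clusters that spanned the stop codon were concentrated in few members. MRPL3 had 576 such reads over the 5 libraries, MRPS21 239, MRPL58 125 and MRPL9 112. Within 3′UTRs, the 20% of the length next to the stop codon held 38.9%, 38.0%, 33.1%, 35.6% and 33.9% of the member reads. Over all protein-coding genes this part held between 27.2% and 29.4% in the 5 libraries. By cluster, these shares were 30.2%, 29.1%, 31.2%, 31.3% and 32.7% in members and 25.3%, 27.0%, 27.3%, 24.8% and 28.2% over all genes.

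MRPS30 had the most reads in the coding sequence, with 124, 19, 31, 51 and 6 in the 5 libraries. These 231 reads were 22.0% of its 1050 reads, and 75.9% lay in exons outside the canonical transcript. The latter belonged to a transcript annotated without a defined coding sequence, and the site shared by all 5 libraries, chr5:44816698-44817066, began 1184 nt downstream of the end of the canonical transcript. On the canonical transcript alone MRPS30 was not a target with RNase I 0.1/0.025. Reads in the coding sequence were next most frequent in MRPL37 with 195 reads, MRPS27 with 155 and MRPL3 with 141.

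The median share of the 3′UTR under clusters was higher in each RNase I library than in either RNase T1 library, among members as among all genes. Among members with a cluster in the canonical 3′UTR, the median share of its nucleotides under clusters was 29.5% (53 genes, interval 22.0% to 58.9%), 17.0% and 17.8% in the RNase I libraries. It was 9.36% (41 genes, interval 7.53% to 14.1%) and 5.68% in the RNase T1 libraries. All protein-coding genes had medians of 23.2%, 13.2%, 12.0%, 7.82% and 4.73%. Of the 39 members covered in both electroeluted libraries, 37 (94.9%) were covered more widely with RNase I, against 94.7% of 6288 protein-coding genes, and the exceptions were MRPL57 and MRPS36. The RNase I 0.05/0.05 library also had about 2 times the cluster reads of RNase T1 1/1, and the part of this depth in the difference was not tested. The 3′UTR of MRPL58 was covered by 100% and that of MRPL9 by 99.8% with RNase I 0.05/0.05. MRPL9 was covered by 17.6% with RNase T1 1/1 in 3 separate clusters.

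**Figure D4:**
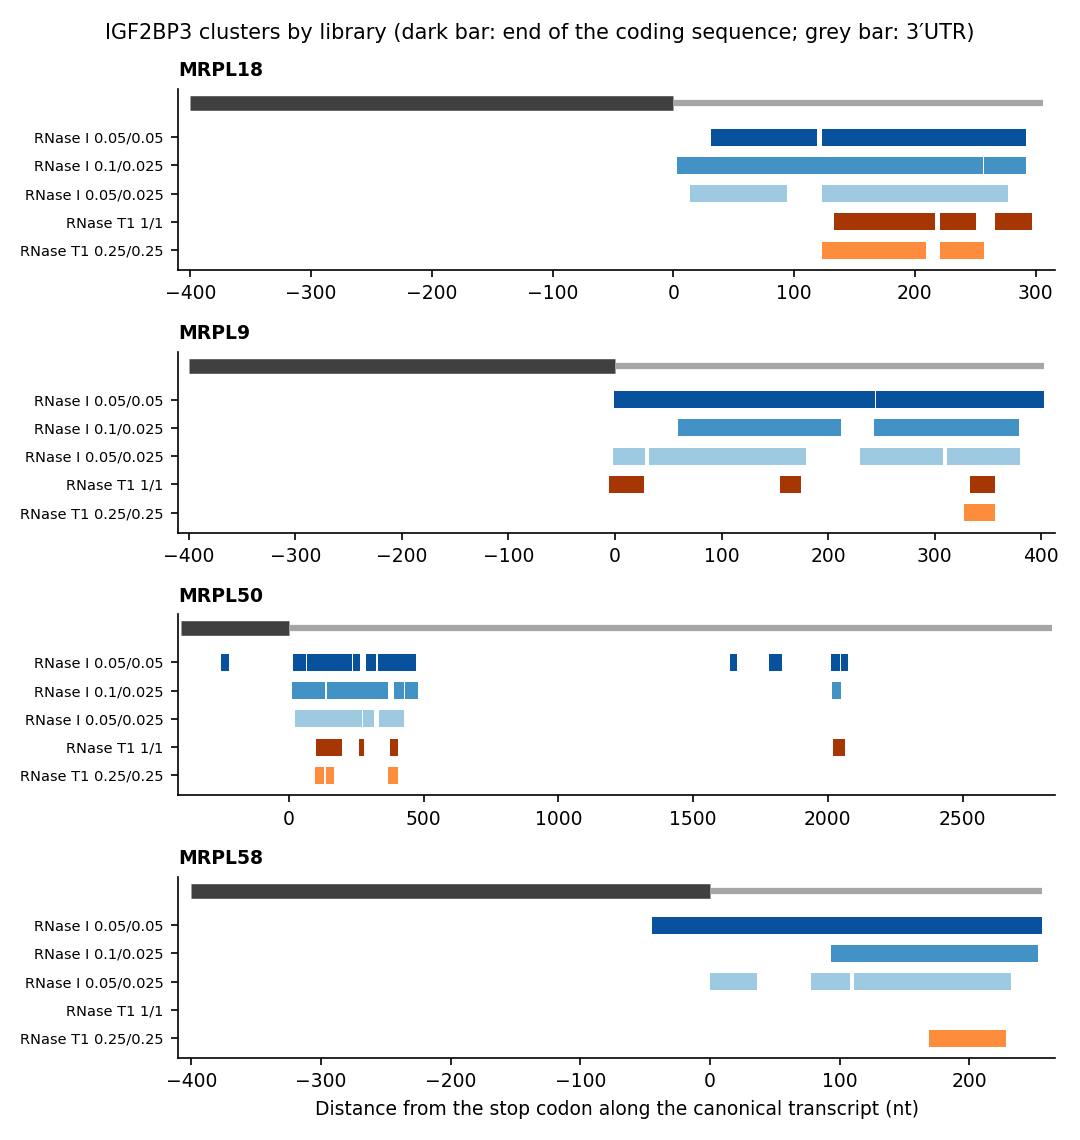
Clusters of the 5 IGF2BP3 libraries (coloured bars, 1 row per library) along the canonical transcripts of MRPL18, MRPL9, MRPL50 and MRPL58, by distance from the stop codon (horizontal axis, nt). Only the parts on canonical exons are drawn; MRPL9 and MRPL58 were covered by 99.8% and 100% of their 3′UTR with RNase I 0.05/0.05, and MRPL58 had no cluster with RNase T1 1/1.

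Reads per gene were compared between RNase I 0.05/0.05 and RNase T1 1/1, which shared the gel extraction. In 48 members with at least 20 reads in both together, the median log2 ratio of CPM, with 1 read added to each count, was 0.58 (interval of the median −0.12 to 0.92), against 0.08 over 7342 protein-coding genes. The members thus varied widely around a median above that of all genes, although its interval included the median of all genes. All 48 had reads with RNase I and 4 had no cluster with RNase T1 1/1. Of the other 44, 20 had a ratio whose interval lay above 1 and 12 a ratio whose interval lay below 1. The median log2 ratio of these 44 was 0.38. Such intervals were not computed for all protein-coding genes. The log2 ratio was above 0 in 62.5% of the 48 members, against 52.9% of the 7342 genes.

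The 5 members with the highest ratios were MRPL58, MRPL34, MRPS24, MRPS12 and MRPS2. MRPL58 had 125 reads with RNase I 0.05/0.05 and MRPL34, of the bL34 family, had 97, and neither had a cluster with RNase T1 1/1. Both genes had clusters with RNase T1 0.25/0.25, of 16 reads in MRPL58 and 8 in MRPL34. MRPS24 had 46 reads and MRPS12 had 27, again without a cluster with RNase T1 1/1, and all reads of MRPS24 lay on exons shared with the readthrough gene URGCP-MRPS24. MRPS2, of the uS2 family, had 109 reads with RNase I 0.05/0.05 and 5 with RNase T1 1/1, a ratio of CPM of 10.7 (interval 4.44 to 33.5).

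At the other end, the ratio was 0.144 in MRPL53 (5 reads with RNase I 0.05/0.05 and 17 with RNase T1 1/1, interval 0.0416 to 0.407), all of whose reads were shared with CCDC142. It was 0.264 in MRPL57 (14 and 26 reads), 0.474 in MRPL3 (412 and 426 reads, interval 0.413 to 0.544), 0.474 in MRPL50 (214 and 221 reads, interval 0.391 to 0.575) and 0.480 in MRPS36 (49 and 50 reads). These 5 members had more CPM with RNase T1 1/1, and each of their intervals lay below 1. MRPL57 and MRPS36 had no cluster with RNase T1 0.25/0.25, so their order was not seen with both RNase T1 libraries.

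RNase T1 cuts single-stranded RNA after G, whereas RNase I has little base preference. The sequences of the genes at both ends of this order are shown with each G in capitals, as windows of 30 nt around the strongest signal of their largest RNase I 0.05/0.05 cluster, leaving out MRPS24 and MRPL53 with their shared reads. The first 4 had the highest ratios and the last 4 the lowest.
MRPL58 (chr17:75020961-75020990, plus strand): attcattctGctGtaaaGacaaGcaGGaGG
MRPL34 (chr19:17306595-17306624, plus strand): aGtacaaaGaacatccGtGtacccaGtacc
MRPS12 (chr19:38932850-38932879, plus strand): ctattaaGccataGGaGtcctGGGGGtGca
MRPS2 (chr9:135504087-135504116, plus strand): aGGGGccaGcccaccctcctGGGGctGaca
MRPL57 (chr13:21177450-21177479, plus strand): GGGatttcctcaGtcacaGatGatattttG
MRPL3 (chr3:131462661-131462690, minus strand): tGtGaGcttcGatGaGccaGaGtGatatca
MRPL50 (chr9:101390278-101390307, minus strand): ttacaaatGGacaaataacGGactttctat
MRPS36 (chr5:69228314-69228343, plus strand): caGaaataataaaaacattacctcaGaaat
The windows of MRPL58, MRPL34, MRPS12 and MRPS2 held 8, 5, 10 and 10 G, and those of MRPL57, MRPL3, MRPL50 and MRPS36 held 7, 9, 4 and 2. The groups thus overlapped. The median over 356 member windows was 5 G and that over 67774 windows of all protein-coding genes was 6 G. The windows of MRPL58, MRPS2 and MRPS36 lay in the coding sequence, those of MRPL58 and MRPS2 in clusters that spanned the stop codon, and the other 5 lay in 3′UTRs.

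Over whole clusters, the percentage of G in the RNase I 0.05/0.05 clusters of a member correlated with its log2 ratio across the 48 members (Spearman's rho 0.56, Pearson's r 0.50) and across 7311 protein-coding genes (Spearman's rho 0.59). These are correlations across genes from the same pair of libraries. Of the 383 member clusters with RNase I 0.05/0.05, 166 (43.3%) overlapped an RNase T1 1/1 cluster, with a median of 16.1% G against 20% in the other 217. Over all protein-coding genes 38.1% of 73961 clusters overlapped, with medians of 16.7% and 20% G. The clusters that overlapped had a median of 24 reads and the others 8, so depth differed along with G. Among the 121 clusters with at least 20 reads, 93 (76.9%) overlapped, with a median of 17.3% G against 20.4% in the other 28, and over all protein-coding genes 75.4% overlapped. In the opposite direction, 214 of 262 RNase T1 1/1 clusters (81.7%) overlapped an RNase I 0.05/0.05 cluster, against 76.9% of 49035 over all protein-coding genes. These shares of the members were near those of all genes.

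**Figure D5:**
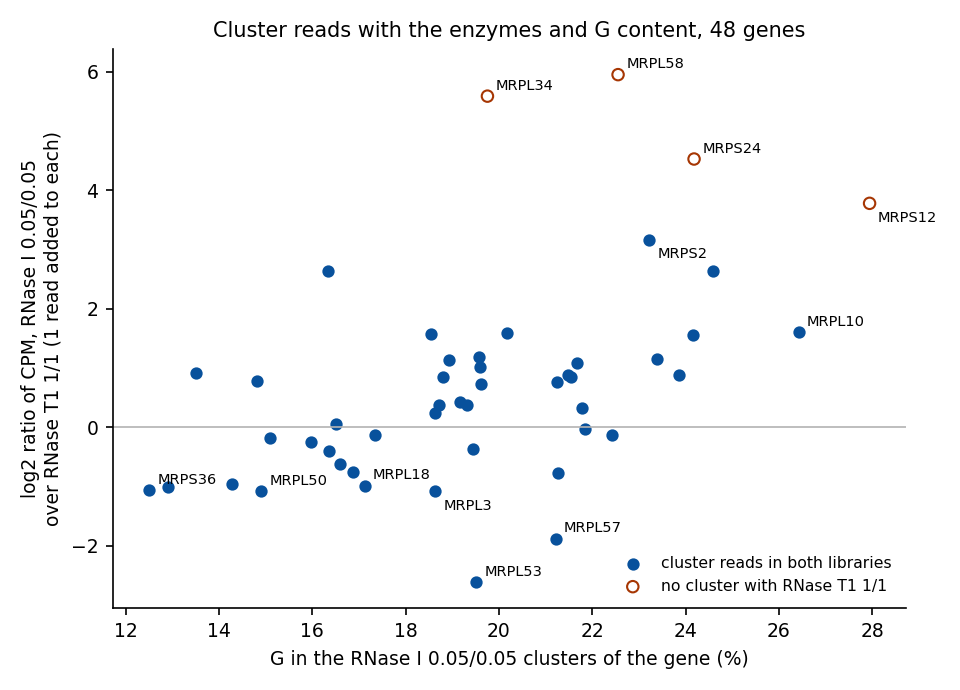
Log2 ratio of CPM between RNase I 0.05/0.05 and RNase T1 1/1 with 1 read added to each count (vertical axis) against the percentage of G in the RNase I 0.05/0.05 clusters of the gene (horizontal axis) for 48 members, 1 point per gene. Open circles mark the 4 members without a cluster with RNase T1 1/1, all of them at the upper end, and Spearman's rho was 0.56.

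The ends of the clusters differed by enzyme. The last base was G in 95.4% of 262 member clusters with RNase T1 1/1 (Wilson interval 92.2% to 97.4%) and in 90.5% of 63 with RNase T1 0.25/0.25 (80.7% to 95.6%). With RNase I it was G in 13.8%, 13.3% and 12.0%. The median cluster length was 62, 56.5 and 54 nt with RNase I and 32 and 36 nt with RNase T1. CATT was found in 41.3%, 44.3% and 46.4% of the member clusters with RNase I and in 38.2% and 47.6% with RNase T1, against 39.5%, 41.6%, 41.0%, 35.2% and 40.0% of the clusters of all protein-coding genes. Each of the 5 values of all genes lay within the Wilson interval of the members. CAGT, which holds a G, was found in 36.3%, 33.8% and 33.9% with RNase I but in 11.5% and 14.3% with the shorter clusters of RNase T1. Per kb of cluster sequence CAGT occurred 5.76, 5.81 and 6.23 times with RNase I and 3.22 and 3.44 times with RNase T1, whereas CATT occurred 8.33, 9.85 and 10.5 times with RNase I and 12.4 and 15.7 times with RNase T1. GGGG stood in 11.7% of the member clusters with RNase I 0.05/0.05 and in 1.53% with RNase T1 1/1. Over all protein-coding genes, the last base was G in 13.3% and 94.8% of the clusters in the same 2 libraries. Their median lengths were 57 and 34 nt. CAGT was found in 34.9% and 11.8% of them, and GGGG in 12.8% and 5.24%. The member values were near these, except that GGGG was less frequent in members with RNase T1 1/1.

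When overlapping clusters of the 5 libraries were merged, the members held 377 sites in 63 genes. Of these, 167 came from a single library, 118 of them from RNase I 0.05/0.05 and 35 from RNase T1 1/1. All 3 RNase I libraries and no RNase T1 library had a cluster at 21 sites in 16 members. By contrast, 0 sites had clusters with both RNase T1 libraries and no RNase I library. Sites were counted for members only, so whether these counts differ from those of all genes is not known. The libraries also differed in depth, from 182448 to 2362467 cluster reads, and the part of depth in these counts was not tested. All 5 libraries had a cluster at 33 sites in 21 members. At 28 of these sites all clusters were assigned to the 3′UTR. This class includes clusters that reach over the stop codon, as at the site of MRPS21. The 33 sites held 44.1%, 57.0%, 55.6%, 55.3% and 85.9% of the member reads.

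The sites of all 5 libraries with the most reads in total were those of MRPL3, MRPS27, MRPL19, MRPS21 and MRPL18. The site in MRPL3, chr3:131462498-131462867, spanned the stop codon and had 343, 149, 114, 344 and 91 reads. The site of MRPS21, chr1:150308194-150308393, had 239, 93, 65, 227 and 56 reads. The single site of MRPL18, chr6:159798127-159798420, held all of its reads, 217, 93, 92, 210 and 64. In CPM these 3 sites were higher in each RNase T1 library than in any RNase I library. The site of MRPS27, chr5:72219722-72220255, had 334, 141, 133, 161 and 21 reads, and that of MRPL19, chr2:75656219-75656966, had 360, 132, 83, 183 and 20 reads. These 2 sites did not share that order. A few clusters of members had a cluster of identical sequence elsewhere in the genome in the same library, 15 of 1110 clusters (1.35%, against 2.14% over all protein-coding genes) with 0.803% of the reads, and in 13 of them both copies held equal numbers of reads and of conversion events. The 15 clusters were in MRPL3, MRPL19, MRPL30, MRPL32, MRPL35, MRPL49, MRPS10, MRPS16 and MRPS36, and their origin is uncertain.

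In 6 members over 50% of the reads lay on exons that another gene shares on the same strand, so that the reads cannot be assigned. In MRPL2, MRPL12, MRPL38, MRPL53 and MRPS24 this was 100% and in MRPS6, whose exons are shared with SLC5A3, 66.2%. Counting only clusters of a single gene removed the calls of MRPS6 with RNase I 0.05/0.05 and RNase T1 1/1 and the only call of MRPL53, with RNase T1 0.25/0.25, and no other call.

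Genes around the mitochondrial ribosome were counted in the same way. Of all protein-coding genes, 29.5% were targets in at least 1 library and 9.91% in all 5. Of 5 mitochondrial ribosomal proteins without an MRP symbol, 3 (60%) were targets in at least 1 library and 0 in all 5. DAP3, a GTP-binding protein of the small subunit, had 62, 32 and 12 reads with RNase I, 18 with RNase T1 1/1 and no cluster with RNase T1 0.25/0.25. AURKAIP1 and GADD45GIP1 had no cluster. Of 15 mitochondrial translation factors, 6 (40%) were targets in at least 1 library and 3 (20%) in all 5. The last were MRRF, the ribosome recycling factor, with 1033, 375, 237, 625 and 53 reads, MTRF1L, a release factor, with 273, 118, 75, 261 and 19, and OXA1L, which inserts mitochondrial translation products into the inner membrane, with 847, 178, 198, 306 and 29. Of 24 mitochondrial ribosome assembly factors, 10 (41.7%) were targets in at least 1 library and 2 (8.33%) in all 5. The latter share was near that of all genes. These 2 were NGRN with 927, 443, 372, 263 and 57 reads and C1QBP with 444, 185, 198, 205 and 56.

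Cytosolic ribosomal proteins and respiratory chain subunits were set beside the members. In at least 1 library 81.8% of 88 cytosolic ribosomal protein genes and 57.3% of 89 respiratory chain subunits were targets, against 50% of the members. The median level of cytosolic ribosomal protein genes with a cluster was 111 CPM per kb with RNase I 0.05/0.05, against 51.5 with RNase T1 1/1, and that of the respiratory chain subunits was 30.6 and 29.0 in the same 2 libraries. The members, at 18.2 and 15.4 there, lay below both lists and above all protein-coding genes, at 9.66 and 11.2. Reads of cytosolic ribosomal protein genes can be shared with processed pseudogenes, and these values carry that limit.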

How the data were processed

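IGF2BP3 IR-PAR-CLIP data from 6 HCT116 libraries were used. Following the submitters' processing notes and the methods, the authors demultiplexed with bcl2fastq 2.20.0.422, handled unique molecular identifiers with UMI-tools 1.1.1, trimmed with Trimmomatic 0.30, aligned to GRCh38 with Bowtie 0.12.7 and ran PARalyzer on each library. For each cluster the authors deposited read counts and counts of T-to-C conversion events, not normalized. The authors' deposited mode score, a fraction, was not used.

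Clusters were assigned to GENCODE release 44 exons with bedtools 2.31.1, and counts, shares and intervals were computed with Python 3.11.15, pandas 2.3.3, numpy 2.4.6, scipy 1.17.1, pysam 0.24.0 and matplotlib 3.10.9. All 1110 member clusters were identical to GRCh38. CPM is relative to the cluster reads of a library, which are not its library size. The canonical transcript of GENCODE gave lengths and 3′UTRs, and a cluster over several features was counted in the 3′UTR first. Exact intervals cover counting error of reads only. Wilson intervals are over genes or clusters and treat these as independent, which they are not. The call rule was tested on simulated data.

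The members, gene lists and settings were chosen with earlier results of these data known. Named genes were the 10 with the highest mean CPM per kb, the 5 highest and 5 lowest ratios, those without a cluster, targets in all 5 libraries or in those of exactly 1 enzyme, those with mostly shared reads, and that with the most coding reads. Others were named after their values were seen. In the methods the RNase I 0.1/0.025 in-lysate concentration is also written otherwise, and the labels were followed. The title of the IgG library also names IGF2BP3, but its antibody label is the control IgG. Alternatives changed the thresholds, the gene and feature assignment, the CPM denominator, the pseudocount and the weighting.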

Additional observations from a re-analysis of the deposited data

How the results depend on the processing

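No paired analysis was possible because each condition was a single library without a replicate number. Of the 76 values recomputed under alternative settings, 49 stayed within their interval or within 1.5 times the count, 27 moved and 0 reversed. The causes were not tested. The number of members called moved most with the criteria. Above 0.75 events per read it was 9, 15, 12, 8 and 11 in the order of libraries used in the report. Above 0.25 events per read it was 34, 34, 37, 30 and 23, against 33, 33, 32, 17 and 19 with the main criteria. RNase I 0.05/0.05 and RNase T1 1/1 thus lay closer together with this lower conversion minimum. Above 5 CPM the number of members called was 45, 44, 44, 29 and 19. With RNase T1 1/1 it was 10 above 20 CPM. Above 20 CPM it was 20 with RNase I 0.1/0.025. With at least 20 reads in place of a CPM threshold it was 20, 18, 11 and 3 in the last 4 libraries, the shallowest of them RNase T1 0.25/0.25. The part of depth in these numbers was not tested. The 3′UTR share of member reads, with the coding sequence counted first, was 72.4%, 83.1%, 84.6% and 86.0% in the first 4 libraries. With each cluster counted once it was 72.8%, 85.2%, 85.4%, 84.0% and 88.9%. With RNase I 0.05/0.05 it was also 84.6% on canonical transcripts and 86.9% in clusters of a single gene. With 1 cluster per gene, CATT was found in 59.3%, 62.5% and 58% with the 3 RNase I conditions. The median log2 ratio stayed within its interval under its 4 alternatives, and so did the 3′UTR coverage and the share of clusters ending in G.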

Other observations

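Clusters in introns of members were almost all in MRPL19. With RNase T1 1/1 this gene had 48 clusters with 510 reads outside its annotated exons, and with RNase I 0.05/0.05 it had 26 with 352 reads. The other 3 libraries had 14 clusters with 151 reads (RNase I 0.1/0.025), 11 with 78 (RNase I 0.05/0.025) and 4 with 28 (RNase T1 0.25/0.25). Outside MRPL19, the introns of members held at most 5 clusters in a library. MRPL19 also had sites that begin 8330 nt and 8583 nt downstream of the end of its canonical transcript, on exons of other annotated transcripts.

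Of 81 annotated genes with the name of a pseudogene of a member, 9 had a cluster, among them MRPL45P2 and MRPS31P5, which are annotated as lncRNAs. MRPL3P1 had 55 reads with RNase I 0.05/0.05, 5 with RNase I 0.1/0.025 and 14 with RNase I 0.05/0.025, and MRPS10P1 had 6 reads with RNase I 0.05/0.05, 11 with RNase I 0.05/0.025 and 24 with RNase T1 1/1. In MRPL3P1, MRPL35P3, MRPS10P1 and MRPS36P1 at least 1 cluster had the same sequence, reads and conversion events as a cluster of the parent gene in the same library, for example 24 reads with 12 events in MRPS10 and MRPS10P1 with RNase T1 1/1. Which copy such reads came from is not known.

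The rRNAs of the mitochondrial ribosome also had clusters. MT-RNR1, the rRNA of the small subunit, had 5413, 2219, 2831, 1512 and 416 reads in the 5 IGF2BP3 libraries and 25 of the 324 reads of the IgG library. MT-RNR2, that of the large subunit, had 6348, 3949, 4583, 1693 and 701 reads and 12 with IgG. Over its clusters together, MT-RNR1 had 0.436, 0.331, 0.331, 0.425 and 0.303 conversion events per read. MT-RNR2 had 0.512, 0.230, 0.228, 0.373 and 0.284. Only the value of MT-RNR2 with RNase I 0.05/0.05 was over 0.5. Pooled member clusters had 0.642, 0.662, 0.608, 0.521 and 0.587. With IgG the rRNAs had 0.36 and 0.333. The IgG library was too shallow for a comparison of levels.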
